A study of Mus musculus with 8 samples.

Results

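The genes described here are 9 genes of 2 routes by which heart mitochondria burn fuels other than fatty acids and glucose. They are Bdh1 and Oxct1, of ketone body use, and Bcat2, Bckdha, Bckdhb, Dbt, Bckdk, Ivd and Hibadh, of the breakdown of leucine, isoleucine and valine. They were chosen by symbol, and all 9 were found by Ensembl identifier among 141239 features counted in each library, 53465 Ensembl genes and 87774 NONCODE genes. All 9 passed the filter on low counts.

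RNA of whole hearts of 2-week-old mice was sequenced in 8 libraries. All 8 hearts carried the Lmna knockout (Lmna-/-), on a strain given only as mixed; Lmna encodes lamins A and C, filament proteins of the inner nuclear membrane. In 5 libraries, called AAV9-LMNA (replicates 1 to 5), wild-type LMNA had been put back with AAV9, an adeno-associated virus vector that reaches heart muscle. The other 3, called untreated (replicates 6, 7 and 8), name no vector. Nothing in the labels names the vector's promoter, its dose or the time of injection. With no control-vector and no wild-type hearts analysed here, an effect of LMNA and one of the vector cannot be told apart, and no value is set against a normal heart.

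In ketone body use, Bdh1 oxidises 3-hydroxybutyrate to acetoacetate, Oxct1 moves coenzyme A from succinyl-CoA onto acetoacetate, and a thiolase such as Acat1 splits the product into acetyl-CoA; the Oxct1 step is the one that commits the ketone to oxidation. The branched-chain amino acids first lose their amino group to Bcat2. The branched-chain ketoacid dehydrogenase complex, built of Bckdha and Bckdhb (E1), Dbt (E2) and the shared Dld (E3), then decarboxylates all 3 ketoacids irreversibly. The kinase Bckdk switches that complex off by phosphorylating Bckdha, and the phosphatase Ppm1k switches it on. Ivd carries the leucine branch on and Hibadh the valine branch. Ketone levels in blood are high in suckling mice, and heart muscle is a main user of them.

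The stretches before the start sites of 4 of the genes are shown because their transcripts were higher in AAV9-LMNA with all features scaled together. Under the other scalings, given below, none of the 4 was called. Bckdha and Hibadh each changed sign under a length correction. Each runs 250 bases up to the base before the first RefSeq start, 5′ to 3′ on the gene's own strand (RefSeq, GRCm38.p6). The windows lie at chr15:4026178-4026427 (plus strand) for Oxct1, chr7:127903823-127904072 (plus) for Bckdk, chr7:25658762-25659011 (minus) for Bckdha and chr6:52640301-52640550 (minus) for Hibadh. The GENCODE annotation places the starts of Oxct1 (4026383), Bckdha (25658981) and Hibadh (52640389) inside these windows. The bases after those starts, for Bckdha most of the window, lie within the gene by GENCODE. Capitals mark GC boxes (GGGCGG or its complement CCGCCC).
Oxct1: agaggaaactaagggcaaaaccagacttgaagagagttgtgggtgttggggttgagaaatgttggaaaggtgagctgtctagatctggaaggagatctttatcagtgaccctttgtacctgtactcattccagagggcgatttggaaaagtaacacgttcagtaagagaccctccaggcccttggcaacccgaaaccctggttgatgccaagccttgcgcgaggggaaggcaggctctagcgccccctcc
Bckdk: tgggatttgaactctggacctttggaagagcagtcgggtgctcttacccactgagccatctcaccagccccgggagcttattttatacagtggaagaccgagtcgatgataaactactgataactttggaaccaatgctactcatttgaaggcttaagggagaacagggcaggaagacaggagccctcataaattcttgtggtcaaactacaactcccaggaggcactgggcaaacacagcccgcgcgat
Bckdha: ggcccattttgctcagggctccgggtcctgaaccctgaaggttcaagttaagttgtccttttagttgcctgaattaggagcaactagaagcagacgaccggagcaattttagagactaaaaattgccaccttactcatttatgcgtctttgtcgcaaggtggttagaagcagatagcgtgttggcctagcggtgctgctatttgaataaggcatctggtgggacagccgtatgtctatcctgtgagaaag
Hibadh: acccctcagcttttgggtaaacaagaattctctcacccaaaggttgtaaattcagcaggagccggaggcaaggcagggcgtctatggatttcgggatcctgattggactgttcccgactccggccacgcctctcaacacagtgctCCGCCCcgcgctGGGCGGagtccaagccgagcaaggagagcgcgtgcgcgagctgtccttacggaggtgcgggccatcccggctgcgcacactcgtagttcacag
Of the 9 genes 8 had such a window, several of them more than 1, and the promoter of Dbt is not shown. The element TNAAGGTCA, to which estrogen-related receptors bind, was searched on both strands and had no match in any window of the 8 genes, against 1.14% of 32851 mouse windows of the same length. GC boxes stood in the windows of Hibadh (2) and of the first start of Bckdhb (3), and in none of the others, against 32.7% of all windows. These are matches of letters and say nothing of binding.

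Depth was similar, with 21576949 to 26492443 counts on features in AAV9-LMNA and 21439956 to 24021970 in untreated libraries. Reads outside every feature made up 12.05 to 12.85% in AAV9-LMNA and 16.75 to 24.69% in untreated libraries, and untreated replicate 6 had the most. NONCODE features held 2.07 to 2.27% of the counts on features in AAV9-LMNA and 2.89 to 4.11% in untreated libraries, again most in replicate 6. The groups did not overlap in this share, and the cause of the difference was not tested. Replicate 6 also stood apart in cell markers: its summed level of 7 fibroblast markers was 1655 CPM (read counts scaled to a common library size), against 4439 to 6985 in AAV9-LMNA libraries and 5996 and 6842 in untreated replicates 7 and 8. Lmna, the check of the labels, had 393, 227, 325, 312 and 747 CPM in AAV9-LMNA and 46.4, 68.7 and 32.3 CPM in untreated libraries (log2 fold change 3.03, SE 0.46, edgeR adjusted p = 0.00486). Whether each library came from its own animal is not stated, and the p-values below therefore cover the spread between libraries, part of which may be technical.

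Positive log2 fold changes mean higher in AAV9-LMNA than in untreated hearts, and a gene is called when its Benjamini-Hochberg adjusted p over 26717 features is under 0.05 in edgeR's quasi-likelihood test. Of the 9 genes, 5 were called higher: Oxct1, Bckdk, Bckdha, Dbt and Hibadh. Over all 13785 coding genes tested, 18.4% were called higher. None of the 9 was called lower, against 6.07% of coding genes. At an unadjusted p under 0.05 none was lower either in edgeR (9.11% of the coding genes), DESeq2 (7.24%) or limma-voom (8.56%). Every AAV9-LMNA library lay above every untreated library in 3 of the 9, Dbt, Bckdk and Hibadh, against 23.1% of coding genes. The median log2 fold change was 0.32 over the 9 genes and 0.21 over all coding genes. The calls rest on scaling and testing Ensembl and NONCODE features together. With Ensembl features alone, which moves the median of coding genes by -0.19, none of the 9 was called in edgeR, where 4.49% of coding genes were called higher and 8.73% lower. At an unadjusted p under 0.05, 2 of the 9 were then higher and 1 lower, against 14% and 16.9% of coding genes. Without untreated replicate 6, 6 of the 9 were called higher, now with Bckdhb and Ivd and without Oxct1. That fit called 4227 features in all, against 6858 with all libraries. Without untreated replicate 7, 10033 features were called in all, and 4 of the 9 were called higher, Oxct1, Dbt, Bckdk and Hibadh. Without untreated replicates 6 and 8 there were 5, Bckdha, Bckdhb, Dbt, Ivd and Hibadh, the lone untreated library being assumed to vary like the others. The count was 2 without AAV9-LMNA replicate 2 or replicate 4, and 3 without AAV9-LMNA replicate 3, AAV9-LMNA replicate 5 or untreated replicate 8. These last fits called 4216 to 5143 features in all. The share of coding genes called is not given for fits with libraries left out, so these counts cannot be set against it. In whole hearts, fewer cells of a type and less RNA per cell cannot be told apart.

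**Figure D1:**
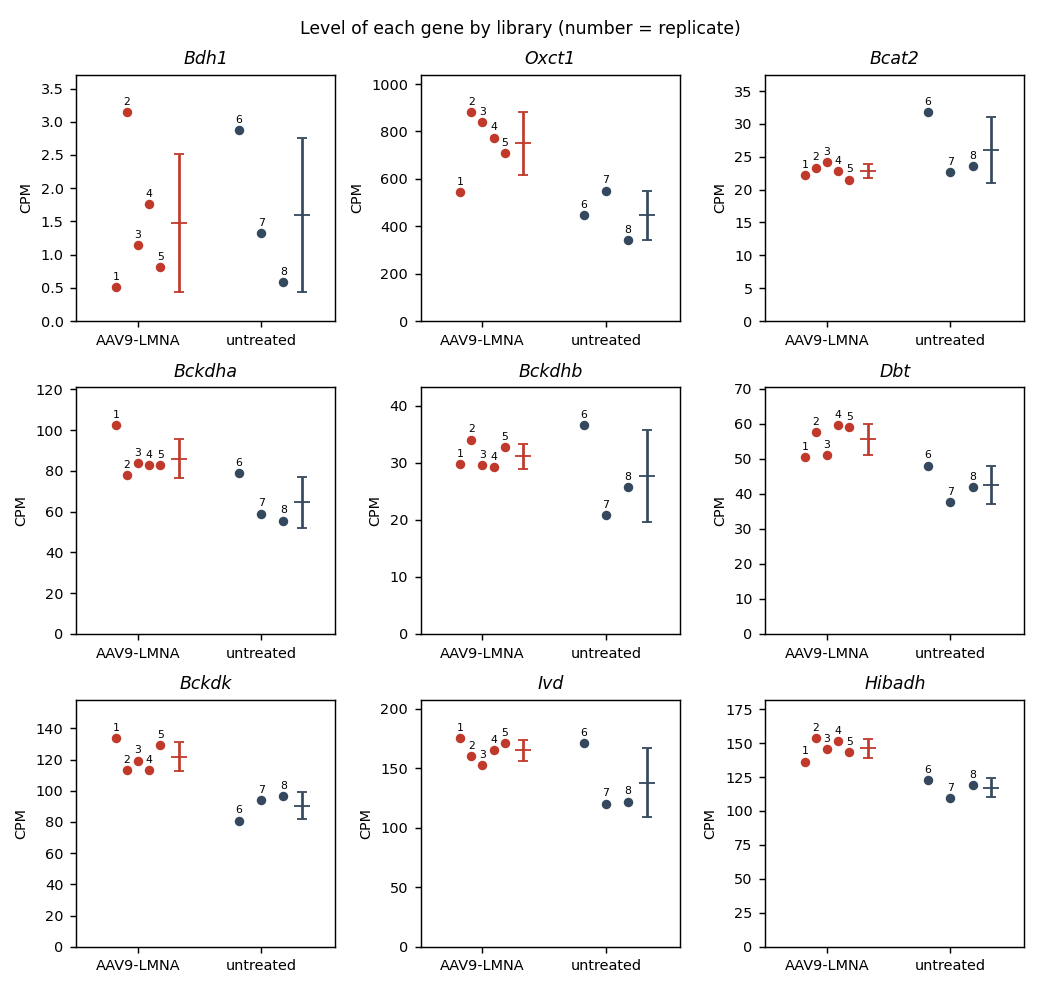
CPM of each of the 9 genes in every library, on axes that start at 0, with AAV9-LMNA libraries (red, left) and untreated libraries (blue, right). Bars give the mean and SD (n = 5 and 3), and the numbers are replicates. Dbt, Bckdk and Hibadh show no overlap between groups, while untreated replicate 6 reaches the AAV9-LMNA range in Ivd, Bckdhb and Bckdha.

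Oxct1 (ENSMUSG00000022186, GRCm38 chromosome 15, 4026383 to 4155344), the rate-setting enzyme of ketone use, had the largest difference of the 9 and, per kilobase of transcript, the highest level. It had 543, 882, 841, 774 and 708 CPM in AAV9-LMNA replicates 1 to 5, against 447, 550.5 and 343 CPM in untreated replicates 6, 7 and 8. AAV9-LMNA replicate 1 lay just below untreated replicate 7, and the other AAV9-LMNA libraries lay above every untreated library. The means were 749 ± 133 CPM (SD, n = 5) in AAV9-LMNA and 447 ± 104 CPM (SD, n = 3) in untreated hearts, 1.68-fold. The log2 fold change was 0.75 (SE 0.18, edgeR adjusted p = 0.0154). Without untreated replicate 6 the estimate was 0.76 and no longer called (edgeR adjusted p = 0.0581), and against untreated replicate 7 alone it was 0.46 (adjusted p = 0.308).

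Bdh1 (ENSMUSG00000046598, chromosome 16, 31422280 to 31458901) was sparse, with 11, 83, 24, 41 and 18 reads in AAV9-LMNA and 70, 31 and 13 reads in untreated libraries. That is 0.514, 3.14, 1.14, 1.76 and 0.815 CPM in AAV9-LMNA, against 2.87, 1.32 and 0.590 CPM in untreated libraries. The groups overlapped through most of their range, with AAV9-LMNA replicate 2 and untreated replicate 6 highest. Its log2 fold change of -0.10 (SE 0.60, edgeR adjusted p = 0.911) had an error too wide to set a direction, and was 0.64 without untreated replicate 6. Bdh1 shares 13.7% of its exon bases with an antisense gene, Gm15743, which had no count in any library. Reads over 2 features are dropped under the counting used, and overlap with NONCODE features was not checked, so the low count of Bdh1 cannot be read as low expression.

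The log2 ratio of Bdh1 to Oxct1 per kilobase was -9.29 ± 0.76 (SD, n = 5) in AAV9-LMNA and -8.43 ± 0.97 (SD, n = 3) in untreated libraries, a difference of -0.86 that was not called (exact permutation test over 56 splits, two-sided p = 0.214, adjusted p = 0.310 over 4 ratios). No AAV9-LMNA library lay above all untreated ones in this ratio, and 3 lay below all of them. Because overlap of Bdh1 with NONCODE features was not checked, the size of the ratio cannot be read as one of expression.

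Bcat2 (ENSMUSG00000030826, chromosome 7, 45570153 to 45589711), the mitochondrial aminotransferase, had 22.1, 23.3, 24.2, 22.8 and 21.5 CPM in AAV9-LMNA, against 31.8, 22.6 and 23.6 CPM in untreated libraries. The AAV9-LMNA values lay close together and included untreated replicates 7 and 8; only untreated replicate 6 stood above them. The log2 fold change was -0.19 (SE 0.13, edgeR adjusted p = 0.268), and without untreated replicate 6 it was -0.01. Its value under length correction, given below, was further from 0. Bcat1, the cytosolic form, was sparse at 2.58 ± 0.54 CPM (SD, n = 5) in AAV9-LMNA and 3.55 ± 2.73 CPM (SD, n = 3) in untreated hearts (log2 -0.46, edgeR adjusted p = 0.473).

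Bckdha (ENSMUSG00000060376, chromosome 7, 25629946 to 25658981, minus strand) encodes the E1 alpha subunit, which holds the serines that Bckdk phosphorylates. It had 103, 78.0, 83.7, 82.7 and 83.0 CPM in AAV9-LMNA, against 79.0, 59.0 and 55.6 CPM in untreated libraries. Untreated replicate 6 overlapped the lowest AAV9-LMNA library, replicate 2, while replicates 7 and 8 lay well below. Means were 86.0 ± 9.51 CPM (SD, n = 5) in AAV9-LMNA and 64.5 ± 12.7 CPM (SD, n = 3) in untreated hearts, a log2 fold change of 0.41 (SE 0.13, edgeR adjusted p = 0.0427). This call sat near the threshold: it was lost when any 1 of the AAV9-LMNA libraries (edgeR adjusted p 0.0665 to 0.0830), untreated replicate 7 (0.0682) or untreated replicate 8 (0.133) was left out. Of the exon bases of Bckdha, 61.7% are shared with B3gnt8 on the opposite strand, so most of its transcript was not countable. B3gnt8 itself had 4.54 ± 1.00 CPM (SD, n = 5) in AAV9-LMNA and 4.46 ± 1.67 CPM (SD, n = 3) in untreated hearts (log2 0.02, edgeR adjusted p = 0.955).

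Bckdhb (ENSMUSG00000032263, chromosome 9, 83925145 to 84124240), the E1 beta subunit, had 29.8, 34.1, 29.6, 29.3 and 32.8 CPM in AAV9-LMNA, against 36.6, 20.8 and 25.8 CPM in untreated libraries. Untreated replicate 6 was the highest of the 8 and replicates 7 and 8 were the lowest, so the groups overlapped. The log2 fold change was 0.17 (SE 0.16, edgeR adjusted p = 0.452) with all libraries and 0.43 without untreated replicate 6, where it was called (adjusted p = 0.0308). Its sign turned under the other scalings, to -0.05 with Ensembl features alone.

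Dbt (ENSMUSG00000000340, chromosome 3, 116513070 to 116549981), the E2 core of the complex, had 50.4, 57.7, 51.1, 59.7 and 59.1 CPM in AAV9-LMNA, against 48.1, 37.6 and 41.9 CPM in untreated libraries. Every AAV9-LMNA library lay above every untreated one, with untreated replicate 6 the nearest to AAV9-LMNA replicates 1 and 3. The means of 55.6 ± 4.47 CPM (SD, n = 5) in AAV9-LMNA and 42.5 ± 5.30 CPM (SD, n = 3) in untreated hearts differed by 0.39 on the log2 scale (SE 0.11, edgeR adjusted p = 0.0274). Leaving out AAV9-LMNA replicate 2, 4 or 5 or untreated replicate 8 ended the call (edgeR adjusted p 0.0638 to 0.0721). Dld, the E3 that all 3 sister complexes share, averaged 350.5 ± 16.9 CPM (SD, n = 5) in AAV9-LMNA and 283 ± 19.1 CPM (SD, n = 3) in untreated hearts, with no overlap (log2 0.31, edgeR adjusted p = 0.0272). The call for Dld was lost without untreated replicate 6 or any 1 of AAV9-LMNA replicates 2 to 5 (edgeR adjusted p 0.0509 to 0.0753). It was also lost under the 3 other scalings, at 0.11 with Ensembl features alone (adjusted p = 0.395), 0.013 with the exon correction (0.938) and 0.022 with the transcript correction (0.888).

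Within a library, the ratio of E1 to E2 differed by less than the spread. The log2 ratio of Bckdha to Dbt per kilobase was 1.44 ± 0.25 (SD, n = 5) in AAV9-LMNA and 1.41 ± 0.16 (SD, n = 3) in untreated libraries (exact permutation p = 0.804, adjusted p = 0.804), and its small difference of 0.035 turned to -0.060 after length and GC correction. For Bckdha over Bckdhb the ratio was 1.39 ± 0.22 (SD, n = 5) in AAV9-LMNA and 1.17 ± 0.23 (SD, n = 3) in untreated libraries (exact permutation p = 0.232, adjusted p = 0.310). Neither test shows that the subunits kept equal proportions. Of the exon bases of Bckdha, 61.7% are shared with B3gnt8, so the size of either ratio cannot be read as one of expression.

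Bckdk (ENSMUSG00000030802, chromosome 7, 127904082 to 127910221), the kinase that inactivates the complex, had 134, 113, 119, 113 and 129 CPM in AAV9-LMNA, against 80.8, 94.1 and 96.6 CPM in untreated libraries. No library overlapped the other group, and untreated replicate 6 was here the lowest of the 8, unlike in 7 of the 9 genes, where it was the highest untreated library. The means were 122 ± 9.36 CPM (SD, n = 5) in AAV9-LMNA and 90.5 ± 8.48 CPM (SD, n = 3) in untreated hearts, 1.35-fold (log2 0.43, SE 0.10, edgeR adjusted p = 0.0130). Its call held with each of the 8 libraries left out in turn (edgeR adjusted p 0.00866 to 0.0327), and was lost against untreated replicate 7 alone (log2 0.39, adjusted p = 0.0662). It shares no exon base with another Ensembl gene.

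Ppm1k, the phosphatase that opposes Bckdk, had 45.2, 43.2, 35.1, 41.6 and 39.7 CPM in AAV9-LMNA, against 68.6, 35.8 and 56.4 CPM in untreated libraries. Replicates 6 and 8 lay above all AAV9-LMNA libraries and replicate 7 among them (log2 -0.39, SE 0.17, edgeR adjusted p = 0.120). The log2 ratio of Bckdk to Ppm1k per kilobase was 2.27, 2.09, 2.47, 2.15 and 2.41 in AAV9-LMNA and 0.94, 2.10 and 1.48 in untreated libraries. Of the 5 AAV9-LMNA libraries 4 lay above all untreated ones, and the fifth lay level with untreated replicate 7. The difference of 0.77 had an exact permutation p of 0.0357 and an adjusted p of 0.143 over 4 ratios, where 0.0179 is the smallest p that 56 splits allow. It therefore did not pass.

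**Figure D2:**
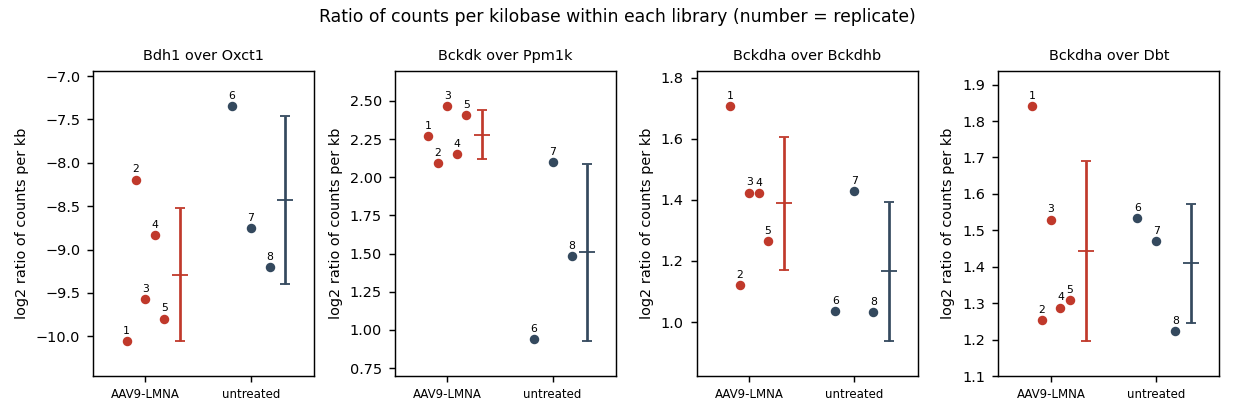
Log2 ratio of counts per kilobase of annotated exons between 2 genes of the same library. AAV9-LMNA libraries are left (red) and untreated libraries right (blue), with mean and SD beside them. Bckdk over Ppm1k averaged 2.28 in AAV9-LMNA and 1.51 in untreated libraries, with untreated replicate 7 inside the AAV9-LMNA range; the other 3 ratios overlapped more widely. The axes differ and do not start at 0.

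Ivd (ENSMUSG00000027332, chromosome 2, 118861954 to 118882909), isovaleryl-CoA dehydrogenase of the leucine branch, had 175, 159.9, 153, 165 and 171 CPM in AAV9-LMNA, against 171, 120.3 and 122 CPM in untreated libraries. Untreated replicate 6 lay among the AAV9-LMNA libraries and replicates 7 and 8 lay below all of them. The log2 fold change was 0.26 (SE 0.12, edgeR adjusted p = 0.137), and 0.46 without replicate 6, where it was called (adjusted p = 0.00798).

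Hibadh (ENSMUSG00000029776, chromosome 6, 52546228 to 52640389, minus strand), 3-hydroxyisobutyrate dehydrogenase of the valine branch, had 136, 154, 146, 151 and 143 CPM in AAV9-LMNA, against 123, 109 and 119 CPM in untreated libraries. All 5 AAV9-LMNA libraries lay above all 3 untreated ones. As a share of the mean, the SD within each group was the smallest among the 9 genes but for Bcat2 in AAV9-LMNA hearts. The means were 146 ± 6.86 CPM (SD, n = 5) in AAV9-LMNA and 117 ± 6.87 CPM (SD, n = 3) in untreated hearts, 1.25-fold (log2 0.32, SE 0.09, edgeR adjusted p = 0.0216). Leaving out AAV9-LMNA replicate 2, 3 or 4 ended the call (edgeR adjusted p 0.0585 to 0.0664).

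Per kilobase of the longest coding transcript, Oxct1 was the most abundant of the 9, at 212 ± 37.7 (SD, n = 5) in AAV9-LMNA and 127 ± 29.4 CPM per kilobase (SD, n = 3) in untreated hearts. Hibadh followed, at 80.1 ± 3.76 in AAV9-LMNA and 64.2 ± 3.76 in untreated hearts. Bckdha and Ivd came next, at 45.3 ± 5.01 and 45.0 ± 2.44 in AAV9-LMNA hearts, and did not differ beyond their spread. Below them lay Bckdk (35.8 ± 2.75), Bckdhb (21.1 ± 1.46), Dbt (16.8 ± 1.35), Bcat2 (10.96 ± 0.50) and Bdh1 (0.472 ± 0.334) in AAV9-LMNA hearts, each separated from the next without overlap. In untreated hearts Ivd (37.6 ± 7.91) stood above Bckdha (34.0 ± 6.67), the order was otherwise the same, and from Ivd down to Bcat2 only Bckdha and Bckdk did not overlap. These levels are understated where exon bases are shared, and among overlaps with Ensembl genes the share was largest for Bckdha. Overlap with NONCODE features was not checked, so the last place of Bdh1 cannot be read as low expression. As a share of the mean, the SD between libraries was larger in untreated than in AAV9-LMNA hearts for all 9 genes. For Bckdhb it was 6.95% in AAV9-LMNA and 29.2% in untreated hearts. The shares were close for Bdh1 (70.7% and 73.0%) and Hibadh (4.70% and 5.86%). In CPM, the SD of Oxct1 and of Bckdk was larger in AAV9-LMNA hearts. These differences in spread were not tested.

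Transcript length moved with the fold change across coding genes above a floor on mean CPM, which Bdh1 did not reach. In the shortest of 10 length classes (median 1090 bases) the median log2 fold change was 0.44, and in the longest (median 8547 bases) it was -0.15. The transcripts of the 9 genes run from 1477 bases (Bckdhb) to 3665 bases (Ivd). Oxct1, at 3527 bases, lay well above the middle range of its class, whose median was 0.23, and Bckdk lay just above that range. Bckdha and Hibadh lay near the median of theirs, while Bckdhb and Bcat2 lay below.

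**Figure D3:**
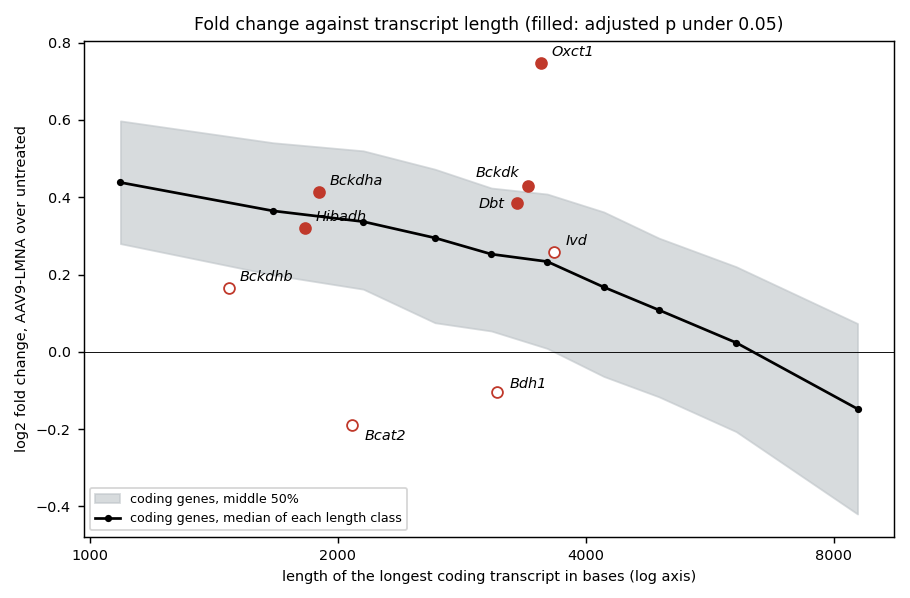
Log2 fold change (AAV9-LMNA over untreated) of the 9 genes against the length of the longest coding transcript on a log axis. The black line joins the medians of 10 length classes of coding genes, which run from 0.44 to -0.15, and the grey band holds the middle 50%. The classes hold coding genes above a floor on mean CPM, which Bdh1 did not reach. Filled points are called. Oxct1 stands above the band, and Bcat2, Bdh1 and Bckdhb stand below it.

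The change in each gene was therefore set beside its change under 3 other scalings. With Ensembl features scaled alone, the log2 fold changes were 0.55 for Oxct1 (edgeR adjusted p = 0.0776), 0.24 for Bckdk (0.115), 0.20 for Bckdha (0.429), 0.18 for Dbt (0.382) and 0.12 for Hibadh (0.449). After each library was also corrected for transcript length and GC content by the longest coding transcript, they were 0.53 for Oxct1 (edgeR adjusted p = 0.105), 0.23 for Bckdk (0.143), 0.13 for Dbt (0.558), 0.04 for Bckdha (0.896) and -0.05 for Hibadh (0.806). With exon length in its place Oxct1 had 0.44 (edgeR adjusted p = 0.155), Bckdk 0.15 (0.316), Dbt 0.05 (0.848), Bckdha -0.01 (0.969) and Hibadh 0.29 (0.0611). Hibadh turns on the length used, since its annotated exons add up to 10179 bases and its longest coding transcript to 1825.

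None of the 9 was called under either correction in edgeR, where 2.91% of coding genes were called higher and 5.88% lower with exon length, and 2.31% higher and 5.38% lower with transcript length. At an unadjusted p under 0.05, 2 of the 9 were higher and 1 lower under each, against 10.9% of coding genes higher under both, and 14.5% lower with exon length and 14.2% with transcript length. At that threshold Oxct1 was higher and Bcat2 lower under all 3 scalings, Bckdk was higher under Ensembl features alone and the transcript correction, and Hibadh was higher under the exon correction. Bcat2 was the lowest of the 9 under the 3 scalings, at -0.40, -0.46 and -0.55 on the log2 scale (edgeR adjusted p = 0.0993, 0.0699 and 0.0506, with Ensembl features alone, exon and transcript correction in this order). The median over the 9 was 0.12, 0.051 and 0.042 in the same order, against 0.020, -0.00064 and 0.00027 over all coding genes. Of the 9 genes, 6 lay above the coding median with all features together and with Ensembl features alone, and 5 after either correction.

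**Figure D4:**
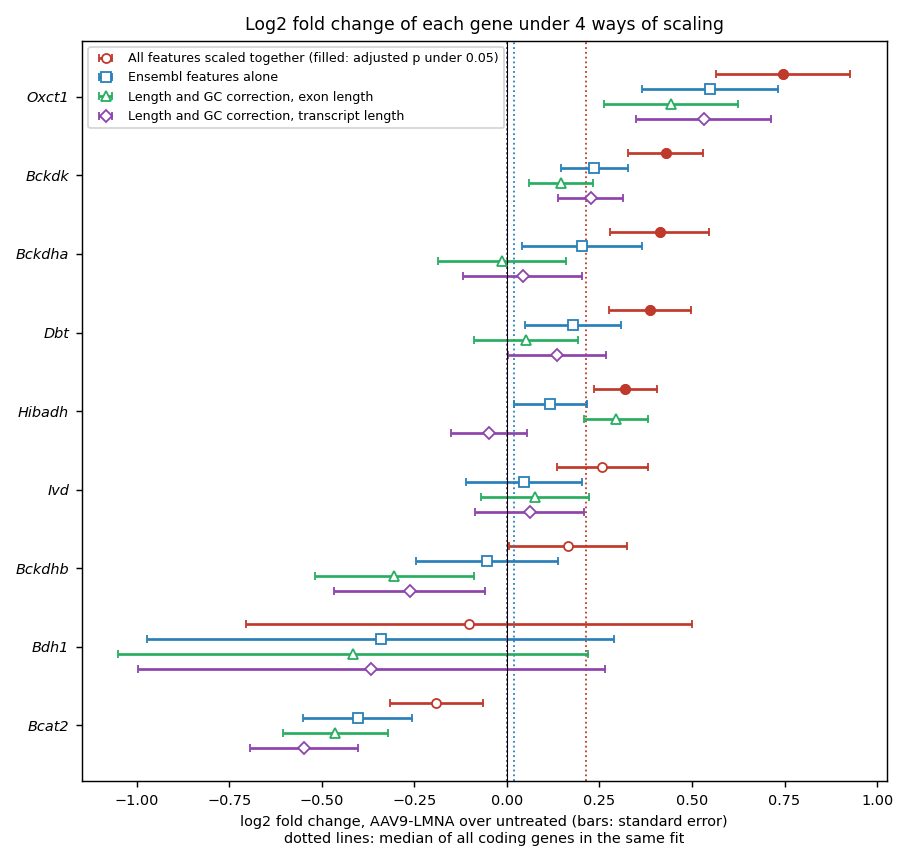
Log2 fold change (AAV9-LMNA over untreated) of the 9 genes under 4 ways of scaling, with standard errors as bars and the median of all coding genes in each fit as a dotted line of the same colour. Filled points have an adjusted p under 0.05. The 5 filled points all belong to the scaling of all features together, where the coding median is 0.21; Oxct1 stays to the right of the medians and Bcat2 to the left under every scaling shown.

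The other genes of these pathways were 36, of which 33 were tested; the others fell below the count filter. Of the 33, 11 were called higher, none lower and 22 not, against 18.4% of coding genes higher and 6.07% lower, with a median log2 fold change of 0.25. At an unadjusted p under 0.05, 5 of the 33 were lower in edgeR, 2 in DESeq2 and 3 in limma-voom, against 9.11%, 7.24% and 8.56% of coding genes in the same order, and none of these passed adjustment.

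In ketone metabolism, Acat1, the thiolase that completes the route begun by Oxct1 and also ends isoleucine breakdown, had 706, 724, 688, 702 and 747 CPM in AAV9-LMNA, against 463, 504 and 532 CPM in untreated libraries. The groups stood far apart (log2 0.51, SE 0.09, edgeR adjusted p = 0.00396), and the call held with Ensembl features alone (0.32, adjusted p = 0.0405) but not after the transcript correction (0.28, adjusted p = 0.0655). Of the 8 tested ketone genes other than Bdh1 and Oxct1, 2 were called higher with all features together, against 18.4% of coding genes. The other 6 were not called, among them the monocarboxylate carrier Slc16a1 (log2 0.25, edgeR adjusted p = 0.116).

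Among the carriers and regulators of branched-chain amino acids, Slc25a44, the carrier that brings them into mitochondria, averaged 36.4 ± 2.15 CPM (SD, n = 5) in AAV9-LMNA and 28.3 ± 2.81 CPM (SD, n = 3) in untreated hearts, without overlap (log2 0.36, SE 0.10, edgeR adjusted p = 0.0271). It was the 1 called gene of the 6 on this list besides Bckdk, against 18.4% of coding genes called higher. The median log2 fold change of these 6 was -0.29, against 0.21 over all coding genes. The call for Slc25a44 was lost with Ensembl features alone (adjusted p = 0.355), and without untreated replicate 8 (0.0854) or any 1 of AAV9-LMNA replicates 2, 3 and 4 (0.0633 to 0.0718). Klf15, a transcription factor known to act on amino acid breakdown in heart and muscle, had 66.6, 48.2, 48.7, 40.7 and 46.5 CPM in AAV9-LMNA, against 130.5, 44.3 and 83.3 CPM in untreated libraries. Replicates 6 and 8 lay above every AAV9-LMNA library and replicate 7 among them (log2 -0.78, SE 0.30, edgeR adjusted p = 0.0828). Without replicate 7 both Klf15 (log2 -1.08, adjusted p = 0.00416) and Ppm1k (log2 -0.59, adjusted p = 0.00368) were called lower in edgeR, and against replicate 7 alone their signs turned, to 0.19 and 0.21.

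Acad8, isobutyryl-CoA dehydrogenase of the valine branch, had the smallest adjusted p of the 33 genes, with 60.7, 55.3, 60.1, 54.4 and 59.4 CPM in AAV9-LMNA, against 30.6, 38.0 and 34.0 CPM in untreated libraries. The lowest AAV9-LMNA library lay well above the highest untreated one (log2 0.76, SE 0.10, edgeR adjusted p = 0.00169). Hibch, which frees 3-hydroxyisobutyrate for Hibadh, had 75.6, 82.0, 79.2, 74.7 and 72.2 CPM in AAV9-LMNA, against 37.1, 56.8 and 51.7 CPM in untreated libraries, again without overlap (log2 0.66, SE 0.13, edgeR adjusted p = 0.00689). Of the 4 genes listed for the valine branch, 3 were called higher, Acad8, Hibch and Hibadh, against 18.4% of coding genes. Aldh6a1, which follows Hibadh, was not called (log2 0.01, edgeR adjusted p = 0.966). Steps that valine shares with the other branches are not in this list. Under each of the 3 other scalings 2 of the 4 were called, Acad8 and Hibch, against 2.31 to 4.49% of coding genes called higher.

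Mmab, which makes the cobalamin cofactor of methylmalonyl-CoA mutase, averaged 22.4 ± 1.40 CPM (SD, n = 5) in AAV9-LMNA and 13.5 ± 1.65 CPM (SD, n = 3) in untreated hearts (log2 0.73, SE 0.12, edgeR adjusted p = 0.00383). Mmaa, which loads that cofactor, averaged 37.2 ± 4.39 CPM (SD, n = 5) in AAV9-LMNA and 23.0 ± 9.504 CPM (SD, n = 3) in untreated hearts (log2 0.69, SE 0.22, edgeR adjusted p = 0.0393), with untreated replicate 7 inside the AAV9-LMNA range. The mutase itself (Mut, also called Mmut) and Mcee were also called, so that 4 of 8 propionyl-CoA genes were higher and 4 not called, against 18.4% of coding genes higher. Under each of the 3 other scalings 1 of the 8, Mmab, was called, against 2.31 to 4.49% of coding genes called higher. Mccc1, a subunit of the carboxylase that follows Ivd in leucine breakdown, had -0.48 (SE 0.18, edgeR adjusted p = 0.0710), which was called lower under the transcript correction (-0.80, adjusted p = 0.0497).

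The 3 genes Acad8, Hibch and Mmab were called higher under all 4 scalings, as no other gene of the pathway was. Their log2 fold changes under the transcript correction were 0.50, 0.33 and 0.49 (edgeR adjusted p = 0.00664, 0.0491 and 0.0199). They were also called with each of the 8 libraries left out in turn. Counts over the 33 genes fell to 4 higher and 2 lower with Ensembl features alone, 4 and 0 with the exon correction and 3 and 1 with the transcript correction. In the same order, 4.49% of coding genes were called higher and 8.73% lower, 2.91% and 5.88%, and 2.31% and 5.38%. The median log2 fold change of the 33 was 0.050, -0.016 and 0.0091, against 0.020, -0.00064 and 0.00027 over all coding genes.

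**Figure D5:**
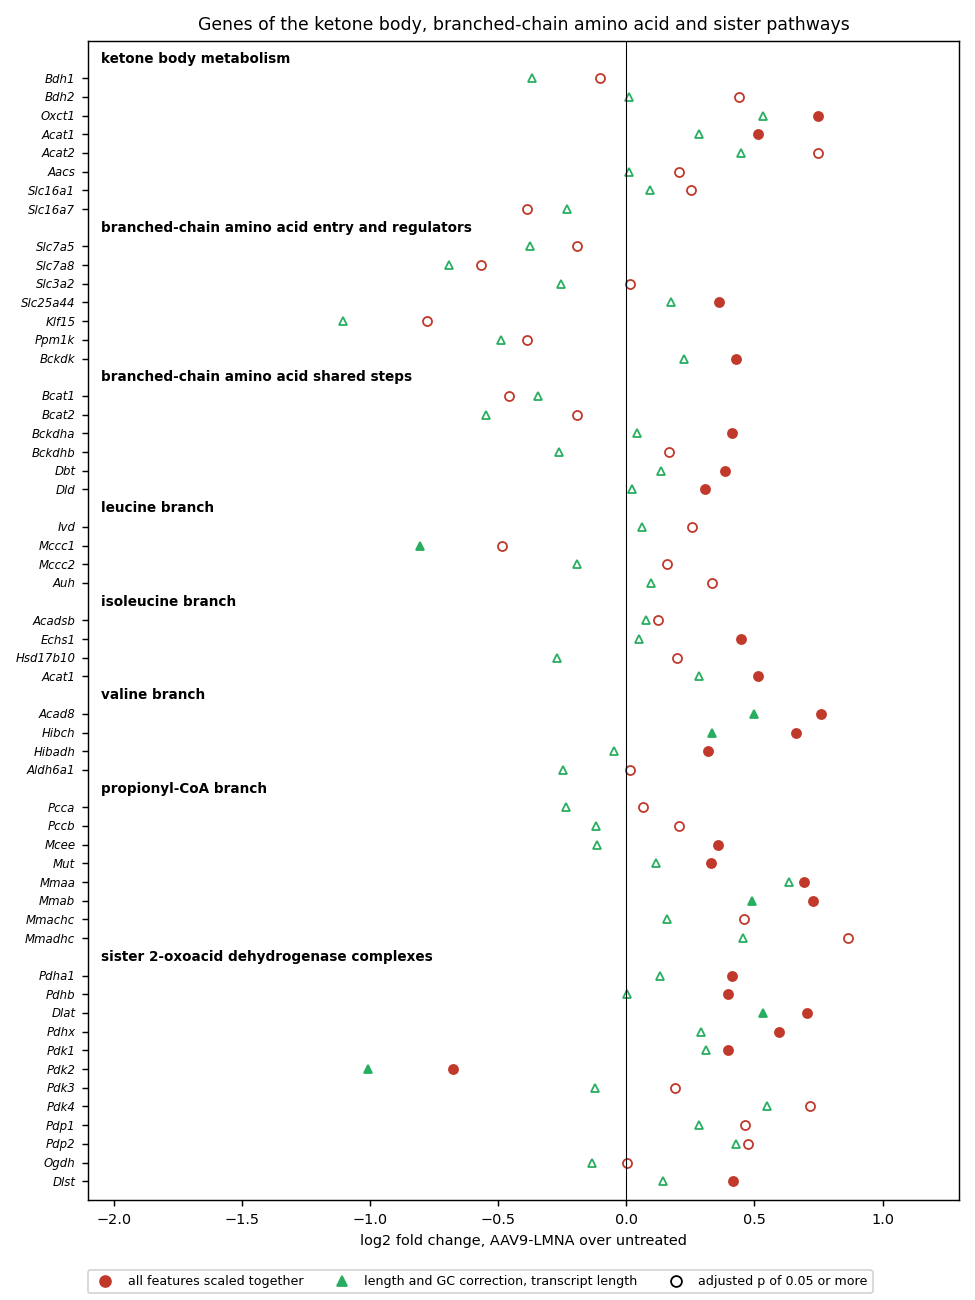
Log2 fold change (AAV9-LMNA over untreated) of genes by step of the pathway, with all features scaled together (red circles) and after the transcript-length and GC correction (green triangles). Filled symbols have an adjusted p under 0.05, and genes of 2 steps appear under both. Filled triangles are Mccc1, Acad8, Hibch, Mmab, Dlat and Pdk2.

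The pyruvate and 2-oxoglutarate dehydrogenase complexes, built on the same plan and sharing Dld, were set beside the branched-chain complex. Of 12 genes tested 6 were called higher, 1 lower and 5 not, with a median log2 fold change of 0.41, against 18.4% of coding genes higher and 6.07% lower. The number called higher fell to 2 with Ensembl features alone (median 0.22), 2 with the exon correction (0.24) and 1 with the transcript correction (0.21), with 1 lower in each. Dlat, the E2 of the pyruvate complex, had 536, 657, 599.6, 634 and 596 CPM in AAV9-LMNA, against 361, 370.3 and 379 CPM in untreated libraries. Of the 3 E2 genes it had the largest log2 fold change (0.71, SE 0.09, edgeR adjusted p = 0.00162) and was called under all 4 scalings. Pdhx (log2 0.60, SE 0.09, edgeR adjusted p = 0.00335) and Dlst (0.42, SE 0.10, adjusted p = 0.0166) were called with all features together.

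Of the 4 kinases of the pyruvate complex, Pdk1 was called higher (log2 0.40, SE 0.11, edgeR adjusted p = 0.0217) and Pdk2 lower, and Pdk3 (0.19, adjusted p = 0.528) and Pdk4 were not called. Pdk1 was not called under the 3 other scalings (adjusted p 0.0755 to 0.230). Pdk2 had 316, 194, 204, 191 and 186 CPM in AAV9-LMNA, against 447, 253 and 345 CPM in untreated libraries. AAV9-LMNA replicate 1 lay above untreated replicate 7, and the rest lay below every untreated library (log2 -0.68, SE 0.21, edgeR adjusted p = 0.0418). Pdk2 was lower under all 4 scalings, and the call was lost without untreated replicate 6 (log2 -0.44, adjusted p = 0.217), untreated replicate 8 (-0.68, adjusted p = 0.0986) or any 1 of AAV9-LMNA replicates 2 to 5 (adjusted p 0.0802 to 0.0866). Pdk4 had 1464, 1078, 1288, 1277 and 1231 CPM in AAV9-LMNA, against 139.6, 1218 and 954 CPM in untreated libraries, where replicate 6 alone stood far below (log2 0.72, SE 0.58, edgeR adjusted p = 0.376). Differences among these kinases, and between them and Bckdk, were not tested.

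Genes with patterns nearest to Oxct1, Bckdha and Bdh1 across the 8 libraries were found by the root mean square difference of log2 CPM about each gene's mean, over coding genes whose log2 CPM averaged 4 or more. Nearest to Oxct1 were Mapkapk3 (0.11), Pgk1 (0.12) and Timm50 (0.13), against a median of 0.41 over 7086 genes. Nearest to Bckdha were Ddrgk1 (0.050), Pacsin3 (0.072) and Yipf7 (0.074), against a median of 0.30. For Bdh1 the nearest, Dynll2 (0.44), Slc7a1 (0.47) and Pcx (0.48), were not close, against a median of 0.71 over 7087 genes.

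Cell markers were set beside these values, and their part in the results was not tested. Calls were made with all features scaled together, where 18.4% of coding genes were called higher and 6.07% lower. The summed level of 8 ventricular muscle markers overlapped, at 58267 to 70489 CPM in AAV9-LMNA and 47369 to 72827 CPM in untreated libraries, with 2 called higher. Neither of these 2 was called under the 3 other scalings. Of 5 tested atrial markers 4 were lower, their list spanning 72.9 to 192 CPM in AAV9-LMNA and 83.3 to 1009.5 CPM in untreated libraries, the highest in replicate 8. These 4 calls held under the 3 other scalings. Endothelial markers (2 of 6 higher) summed to 1258 to 1663 CPM in AAV9-LMNA and 874 to 1409.6 CPM in untreated libraries. Both calls were lost with Ensembl features alone and with the exon correction. With the transcript correction only that of Tie1 held (edgeR adjusted p = 0.0457). Macrophage markers, none of 6 called, summed to 366 to 423 CPM in AAV9-LMNA and 112 to 426 CPM in untreated libraries, lowest in replicate 6, and erythroid and fibroblast markers had no call. Ucp1 was at or near 0 and Adipoq at 0 in every library, though both tested markers of the brown fat list, Fabp4 and Cidea, were higher. Fabp4 was not called under the 3 other scalings (edgeR adjusted p 0.0601 to 0.255). Cidea was called with Ensembl features alone (adjusted p = 0.0256) but under neither correction (0.183 and 0.152). Alb, which marks liver, the site of ketone synthesis, was at or near 0 throughout.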

How the data were processed

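Each library came as 1 deposited table of raw, unnormalized read counts by gene. Per the submitters' processing notes, TopHat2, HTSeq, edgeR and limma were used, without versions or roles, on GRCm38 and mm10; per the deposited tables' names, counting ignored strand over Ensembl genes and NONCODE version 5. A read over 2 features is then dropped as ambiguous, and ambiguous reads made up 21.03 to 26.37%. The 5 summary lines of each table stayed out of library sizes and tests.

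Symbols, coordinates and lengths came from GENCODE M21 (GRCm38), which matched 53274 of 53465 Ensembl identifiers, and 1 list entry (Mmut) matched as Mut. Overlaps with NONCODE genes were not checked. The main test was edgeR 4.0.16 in R 4.3.3 (filterByExpr, TMM over all features, robust quasi-likelihood fit with 1 group term, Benjamini-Hochberg over 26717 features at 0.05). CPM were computed from the counts and TMM library sizes. Ratios used counts plus 0.5 per kilobase of annotated exons, not of the longest coding transcript, and an exact permutation test over the 56 splits of 5 and 3. Likeness used log2 of CPM plus 0.5. Library counts ran from 21439956 to 26492443, and their intervals would cover counting error only.

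Alternatives were RLE factors, DESeq2 1.42.0, limma-voom (limma 3.58.1), no filter, at least 1 CPM in 3 libraries, Ensembl features alone, a loess correction (span 0.5) for exon length and GC content passed as offsets, each library left out, and untreated replicates 6 and 8 left out together. The same correction by longest coding transcript was added after the exon lengths were seen. The scripts were tested on simulated counts.

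Besides Lmna and the 9 genes, the text names Dld, Ppm1k, Acat1, Klf15 and Slc25a44, the 4 called pathway genes with the largest positive and negative changes, Pdk2, Pdk4 and the 3 other called sister genes with the largest change, and the 3 nearest genes by pattern. Genes outside that rule (Aldh6a1, Bcat1, Mccc1, Pdk1, Pdk3, Mcee, Mut, Slc16a1, Slc16a7, Slc7a8, the overlapping genes B3gnt8 and Gm15743, and the cell markers Tie1, Ucp1, Adipoq, Fabp4, Cidea and Alb) were named after their values were seen. Some genes of the lists are not reported here, though the lists' counts include them. The 9 genes and all lists were chosen with earlier results of these data known.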

Additional observations from a re-analysis of the deposited data

Results flagged for a closer look

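Bckdha in AAV9-LMNA replicate 1, at 103 CPM, stood apart from the other 4 AAV9-LMNA libraries, which had 78.0 to 83.7 CPM. The gap to its nearest neighbour was 0.767 of the range of the group, above the limit of 0.71 for 5 samples. Over 13 groups of 5 libraries tested in this way, chance flags about 1 in 20. Without that library the log2 fold change of Bckdha was 0.34 (edgeR adjusted p = 0.0787), against 0.41 with it (0.0427).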

How the results depend on the processing

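No paired analysis was possible because the groups share no replicate number (AAV9-LMNA 1 to 5, untreated 6 to 8). Counts of calls differed most where NONCODE features were left out, which changes the scaling and the set tested together. Against 6858 of 26717 features called, 1967 of 15256 were called with Ensembl features alone (among 13785 coding genes, 619 higher and 1203 lower, against 2535 and 837 with all features), 1381 of 15248 with the exon-length and GC correction and 1203 with the transcript-length one, 2143 without untreated replicates 6 and 8, and 4216 to 10033 with 1 library left out. Members called higher, 5 at first, were 0 under Ensembl features alone and under each correction, 2 to 6 with 1 library left out, and 4 or 5 under the other tools, factors and filters (Bckdha was lost at a minimum of 1 CPM, adjusted p = 0.0774). Other pathway genes called higher, 11 at first, were 4, 4 and 3 under these 3 scalings, 7 without replicates 6 and 8, and 6 to 13 with 1 library left out; those called lower, none at first, were 2 with Ensembl features alone (Slc16a7 and Slc7a8), 1 with the transcript correction and 1 without a filter (Mccc1 in both), 2 without replicates 6 and 8, and 0 to 2 with 1 library left out. Signs turned for Bckdhb (-0.053, -0.30 and -0.26 under Ensembl features alone, exon and transcript correction), Bckdha (-0.014, exon), Hibadh (-0.048, transcript) and the log2 ratio of Bckdha to Dbt (-0.060 after correction, -0.0644 to 0.0975 with 1 library left out). Without untreated replicates 6 and 8, Bdh1 had 0.19, Bcat2 0.023, Ppm1k 0.21 and Klf15 0.19. Bdh1, fitted with 1 library left out, ran from -0.60 to 0.64, and was 0.11 without AAV9-LMNA replicate 1, 0.04 without replicate 5 and 0.64 without untreated replicate 6. The cause of these changes was not tested. Replicate 6 was not the only untreated library that moved the counts. The features called were 4227 without replicate 6, 10033 without replicate 7 and 5143 without replicate 8. With 3 untreated libraries, and with 11 to 83 reads of Bdh1 per library, small differences could go uncalled. No limit of detection is given.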
